A study of Homo sapiens with 3 samples.

Results

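Long intergenic non-coding RNAs that carry a LINC symbol were examined in T24 cells, a human line derived from a bladder urothelial carcinoma. A gene was chosen if its symbol was LINC followed by digits only and if it had at least 50 raw counts in at least 1 of 3 RNA-seq libraries. This left 162 members among the 58381 rows of the count table, of which 14555 genes passed the same count minimum. The table held 2242 LINC-named genes, and 977 of them had a count. Because the members were chosen on their counts, their presence in these cells is the rule and not a result.

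The 3 conditions were Ctrl (T24 cells without irradiation), RT (irradiated T24 cells) and RT + shHDAC6 (irradiated T24 cells with HDAC6 knocked down), with 1 library each. HDAC6 is a mostly cytoplasmic deacetylase whose substrates include tubulin. Per the labels, the line was infected with lentivirus holding either the empty vector pLKO.1 or an shRNA against human HDAC6 and was then selected with puromycin, and the dose was 10 Gy from a caesium source. The study's text calls the comparator parental in one place and a vector control in another, the time between irradiation and RNA extraction was not given in the sources used here, and neither was whether the knockdown cells were a pool or a clone. No library of knockdown cells without irradiation was analysed here, so RT + shHDAC6 against Ctrl holds both changes together. The differences below come without replicates and without p-values.

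LINC symbols are placeholders. They are given to RNA genes that lie between protein-coding genes, code for no known protein and have no established function from which to name them. Many such RNAs are spliced and polyadenylated like mRNAs but are present at low levels and in few tissues, and some are transcribed from enhancers or share a start region with a neighbouring gene. A small number have been studied in carcinomas, where several were described as raised in tumours.

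Total counts were 41811165 for the Ctrl library, 35959265 for RT and 35424086 for RT + shHDAC6. HDAC6 itself had 3098, 2383 and 2170 counts, a log2 ratio of -0.20 for RT + shHDAC6 against RT (95% counting interval -0.28 to -0.11), so the targeted mRNA was lower in the library labelled as knockdown by a small amount only. In separate assays of its knockdown cells, the study reported lower HDAC6 mRNA by qPCR and lower HDAC6 protein by Western blotting. Mitochondrially encoded RNA took 3.75%, 6.09% and 5.51% of the counts. All 6 epithelial markers reached 50 counts, whereas 4 uroplakins of the luminal urothelium had between 0 and 18 counts. The minimum was also reached by all 3 mesenchymal and all 3 endothelial markers, 4 of 5 basal markers and 1 of 3 blood markers. Reaching 50 counts therefore does not identify a cell type here. From RT to RT + shHDAC6, 1 of the 6 epithelial markers was lower by 2-fold (KRT7, with 3533, 3854 and 597 counts) and the other 5 had log2 ratios from 0.05 (KRT18) to 0.51 (EPCAM), with a median of 0.29 over the list. Of the luminal factors, GATA3 had 2320, 1423 and 709 counts and PPARG 1298, 650 and 352, whereas FOXA1 had 509, 303 and 386, with log2 ratios of -1.07, -0.95 and 0.29. Of the mesenchymal markers, CDH2 was lower by 2-fold in RT + shHDAC6 against RT (-1.04), while VIM had 0.31 and FN1 0.07. The part of these markers in the differences described below was not tested. In bulk RNA, fewer cells of one state and less RNA per cell cannot be told apart.

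The members were mostly low. The median of the highest count per member was 190, against 1538 for protein-coding genes with the same minimum, and 88 of the 162 stayed under 200 counts in every library. The minimum was reached in all 3 libraries by 101 members, in 2 libraries by 31 and in 1 library by 30. Of these 30, 26 passed through Ctrl alone, the deepest library, 1 through RT alone and 3 through RT + shHDAC6 alone, so for these members some difference between libraries was built into the choice. All 162 had a count in every library, with a lowest count of 20 (Ctrl), 14 (RT) and 4 (RT + shHDAC6). Just inside the threshold, LINC00310 had 50, 33 and 18 counts, LINC01194 had 50, 28 and 9, and LINC00431 had 20, 15 and 53. Just outside, LINC01768 had 46, 34 and 33 counts, LINC02449 had 34, 48 and 19, and LINC00376 had 15, 8 and 49.

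In GENCODE release 44 on GRCh38, the members lay on 23 chromosomes and had a median of 3 exons and 3675 bases of exon sequence. A protein-coding gene body overlapped 24 of them, 66, these included, lay within 10 kb of one and 44 lay more than 100 kb from any. The annotation placed limits on some. In all, 13 were typed as transcribed pseudogenes in release 44, 31 shared exon sequence with another gene on the same strand and 57 with one on the other strand, while 89 shared none. Without a stated strand setting, reads from overlapping genes on opposite strands could not be told apart.

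The promoters of 4 members with large differences between RT + shHDAC6 and RT are shown first, so that the base composition given after them can be read beside the letters. RefSeq promoter entries (250 bases before to 50 after the start, GRCh38.p14) matched 97 of the 162 members, and in 50 of these the RefSeq start lay within 100 bases of the GENCODE start. The 3 largest falls with such an entry and the 1 rise with one are given 5′ to 3′ on the strand of the gene. They were taken among members with at least 100 counts in RT or RT + shHDAC6. Capitals mark matches, on either strand, to the motifs listed after them.
LINC01583: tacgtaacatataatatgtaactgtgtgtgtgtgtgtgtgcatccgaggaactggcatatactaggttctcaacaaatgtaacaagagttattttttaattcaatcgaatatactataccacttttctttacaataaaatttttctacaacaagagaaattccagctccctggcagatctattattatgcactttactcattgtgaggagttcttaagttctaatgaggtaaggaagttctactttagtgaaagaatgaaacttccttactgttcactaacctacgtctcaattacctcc
LINC02088: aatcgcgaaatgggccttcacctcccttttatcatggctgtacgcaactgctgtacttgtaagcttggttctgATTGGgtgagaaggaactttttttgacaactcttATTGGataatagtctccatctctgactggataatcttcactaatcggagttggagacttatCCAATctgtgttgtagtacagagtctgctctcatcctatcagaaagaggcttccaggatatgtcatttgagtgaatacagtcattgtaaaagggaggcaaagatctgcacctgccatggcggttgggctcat
LINC02889: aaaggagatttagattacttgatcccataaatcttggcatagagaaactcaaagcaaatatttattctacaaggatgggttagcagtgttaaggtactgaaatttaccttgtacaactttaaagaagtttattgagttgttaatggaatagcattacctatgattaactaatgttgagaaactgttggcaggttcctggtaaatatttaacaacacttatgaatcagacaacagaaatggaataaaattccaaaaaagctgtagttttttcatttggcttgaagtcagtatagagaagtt
LINC01836: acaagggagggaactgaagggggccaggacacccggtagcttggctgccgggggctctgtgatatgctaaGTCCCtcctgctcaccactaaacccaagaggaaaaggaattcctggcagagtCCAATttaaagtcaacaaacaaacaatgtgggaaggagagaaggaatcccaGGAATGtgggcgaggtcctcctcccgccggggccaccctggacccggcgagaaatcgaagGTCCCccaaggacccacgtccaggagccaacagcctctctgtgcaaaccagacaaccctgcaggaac

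The first window lies at chr15:82088344-82088643 on the plus strand, the second at chr17:20633202-20633501 on the minus strand, the third at chr7:17558860-17559159 on the minus strand and the last at chr19:782546-782845 on the plus strand. The G and C content was 34.0% for LINC01583, 43.7% for LINC02088 and 31.3% for LINC02889, which fell, and 57.7% for LINC01836, which rose. This single rise does not stand for the others. LINC00702, a rise with fewer counts, had 31.3% and 0 CpG dinucleotides, as LINC02889 did, and LINC02361, another, had 76.3%. Over all matched members called lower with the knockdown among irradiated cells (18 promoters), the median G and C content was 48.3%. It was 46.2% in the 6 matched members called higher, 58.0% in the 73 not called and 58.7% in all 34943 promoters, so the medians of both called groups lay below that of the rest. With the 50 entries near the GENCODE start alone, the medians were 49.7% for the falls (12 promoters), 50.7% for the rises (4 promoters) and 58.7% for all members that did not fall (38 promoters, the rises included). These are descriptions of the annotated windows with no test. The 10 matched members called lower in RT than in Ctrl had a median of 57.7%.

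The motifs searched on both strands were AP-1 (TGACTCA), TEAD (GGAATG), the E-box (CACGTG), the TATA box (TATAAA), the CCAAT box (CCAAT), the GC box (GGGCGG) and a short NF-kB motif (GGGAC), and none of them contains another. LINC02088 held the CCAAT box 3 times, LINC01836 held TEAD and the CCAAT box once and the short NF-kB motif 2 times, and the other windows held none of these letters. The CCAAT box was present in 49.5% of the members' promoters and 34.6% of all promoters, and AP-1 in 10.3% and 4.96%. The remaining shares, again for members and then for all promoters, were 13.4% and 14.0% for TEAD, 4.12% and 7.23% for the E-box, 12.4% and 11.6% for the TATA box, 45.4% and 44.9% for the GC box and 53.6% and 55.0% for the short NF-kB motif. Among the 18 promoters of members lower with the knockdown, 27.8% held a GC box, against 33.3% of the 6 promoters of higher members and 50.7% of the 73 not called.

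Radiation was addressed by RT against Ctrl. A member was called when its TMM-scaled counts differed at least 2-fold (TMM, trimmed mean of M-values, sets the libraries to a common scale). In RT, 3 members were higher and 17 were lower. Of all genes with the same minimum, 4.17% were higher and 3.48% were lower, against 1.85% and 10.5% of the members. The median log2 ratio was -0.19 over the members and 0.02 over all genes. The other long non-coding RNAs, 1011 genes, had 7.62% called lower and a median of -0.04, and protein-coding genes had 2.77% and 0.04.

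The difference from the background depended on the number of counts. At a highest count of 50 to 99, 13.7% of the members and 12.5% of all genes were lower in RT. The shares were 18.9% and 7.92% at 100 to 199 counts, 4.65% and 4.44% at 200 to 499, and 3.23% and 0.906% at 500 or more, where the member share rests on 1 of 31 members. When the mean over the libraries, in place of the highest count, had to reach 50, 10 of 136 members were lower, which is 7.35%, against 2.23% of all genes. Of the 101 members at the minimum in all 3 libraries, 2 were lower and 2 were higher. The lower share there was 1.98%, near the 1.39% of all genes chosen in the same way, although such a choice also removes genes that fell below the minimum. Most of the falls in RT thus came from members under 50 counts in at least 1 library.

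Of the members lower in RT with at least 100 counts in Ctrl, the one with the most counts was LINC00460 (ENSG00000233532, chr13:106374477-106384315, plus strand, 7 exons, sharing no exon), an RNA described as raised in many carcinomas and linked to migration. Its counts were 630 (Ctrl), 192 (RT) and 92 (RT + shHDAC6). Its log2 ratio for RT against Ctrl was -1.28 (95% counting interval -1.52 to -1.04). Its level fell again from RT to RT + shHDAC6, by a log2 ratio of -1.12 (-1.50 to -0.76). Its nearest protein-coding gene, EFNB2, an ephrin ligand 105430 bases away, had log2 ratios of 0.26 and -0.57.

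LINC01235 (chr9:13406380-13488125, minus strand, 5 exons) had 219, 57 and 25 counts, with log2 ratios of -1.51 (-1.95 to -1.08) for RT against Ctrl and -1.25 (-1.99 to -0.55) for RT + shHDAC6 against RT. LINC01876 (chr2:156011530-156254950, minus strand) had 147, 50 and 8 counts, with log2 ratios of -1.12 and -2.71. LINC02609 had 108, 32 and 8 counts, with log2 ratios of -1.32 and -2.06. These RNAs stepped down in both comparisons, which share the RT library.

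Others fell in RT and were not lower again by 2-fold in RT + shHDAC6. LINC00886 had 168, 50 and 36 counts and a log2 ratio of -1.31 in RT against Ctrl. LINC02615 had 115, 39 and 25 counts and a ratio of -1.12. LINC01588 had 104, 32 and 36 counts and a ratio of -1.27. In these 3 RNAs Ctrl was the high library. LINC02970 had 219, 63 and 102 counts, with log2 ratios of -1.36 (-1.79 to -0.95) in RT against Ctrl and 0.63 in RT + shHDAC6 against RT. LINC01687 had 112, 29 and 69 counts, with ratios of -1.51 and 1.19, so it was low in RT alone. The nearest protein-coding genes of the falls named here did not pass the 2-fold rule where they reached 50 counts. NCAM2, an adhesion molecule beside LINC01687, had a ratio of -0.58, NR4A2, a nuclear receptor beside LINC01876, -0.76, and MPDZ, a scaffold protein beside LINC01235, -0.22. SLCO4A1, a transporter beside LINC02970, had 0.24, VCPKMT, a methyltransferase beside LINC01588, 0.62, and PGRMC2, a haem-binding protein beside LINC02615, 0.51. LEKR1, beside LINC00886, had 47, 14 and 18 counts, and BARHL2, a homeobox gene beside LINC02609, was listed at 0.

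The rises in RT were few. LINC01311 (chr22:19171395-19172851, plus strand, 1 exon) had 66, 108 and 127 counts and a log2 ratio of 1.15 (0.69 to 1.61), exons of a gene on the other strand covered part of it, and its neighbour SLC25A1, the mitochondrial citrate carrier, had a ratio of -0.32. LINC01134, which starts next to C1orf174 on chromosome 1, had 53, 90 and 108 counts and a ratio of 1.20 (0.69 to 1.72). LINC02977, beside SUSD1 on chromosome 9, had 45, 67 and 31 counts and a ratio of 1.01 (0.44 to 1.59). With library totals in place of TMM, 0 members passed the 2-fold rule upwards, and 28 passed it downwards. That scaling moved the median of all genes by -0.22 on the log2 scale. LINC02977 fell under the count limit of the naming rule and was chosen after its values were seen.

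**Figure D1:**
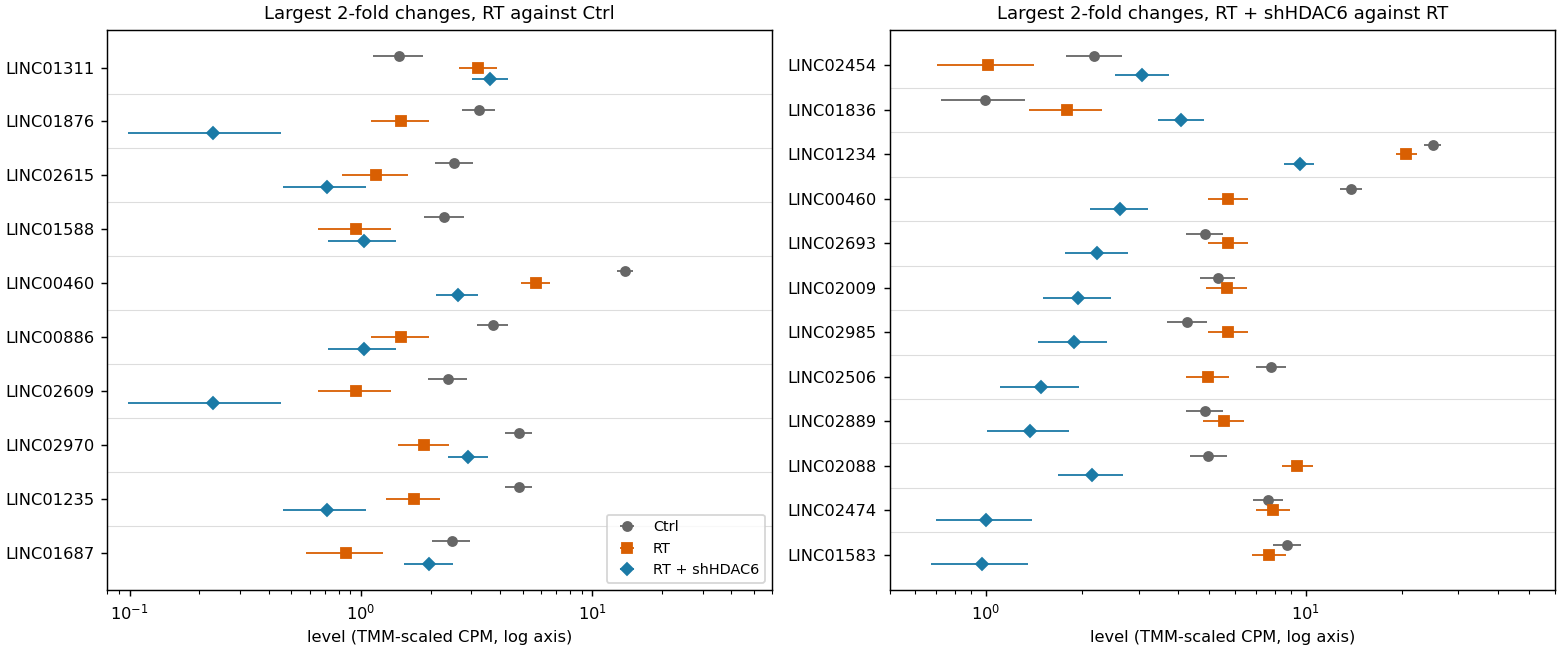
Level of the members with the largest 2-fold changes, in TMM-scaled CPM (counts scaled to library size, log axis), in Ctrl (grey circles), RT (orange squares) and RT + shHDAC6 (blue diamonds), with bars for the 95% Poisson counting interval of each of the 3 single libraries. In the right panel the 10 members with the largest falls have similar Ctrl and RT levels in most cases and a separate, lower RT + shHDAC6 level.

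The knockdown in irradiated cells was addressed by RT + shHDAC6 against RT. Here 8 members were higher and 32 were lower. Of all genes with the same minimum, 1.39% were higher and 2.89% were lower, so that the members' shares of 4.94% and 19.8% are to be read against these. The median log2 ratio was -0.25 over the members and -0.02 over all genes. Genes named as antisense RNAs, the other large group of long non-coding RNAs defined by name, had 3.72% of 296 lower and a median of 0.04. Over all other long non-coding RNAs, 5.24% were lower with a median near 0 (-0.0047), and over protein-coding genes 2.38%.

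In each class of the highest count, the share of lower members was above that of all genes. It was 29.4% at 50 to 99 counts (all genes, 6.48%), 18.9% at 100 to 199 (4.95%), 18.6% at 200 to 499 (4.72%) and 6.45% at 500 or more (1.55%), with 15, 7, 8 and 2 members called. When the mean had to reach 50, 20 of 136 members were lower, or 14.7%, against 2.48% of all genes. Of the 101 members at the minimum in all 3 libraries, 8 were lower and 0 were higher, which is 7.92% lower against 1.79% of all genes chosen in the same way. The 8 rises and most of the 32 falls therefore lay in members under 50 counts in at least 1 library, and that choice also removes genes that fell below the minimum. Of the 89 members that share no exon with another gene, 23 were lower, which is 25.8%. The counting interval lay wholly below 0 in 30 of the 32. The 2 members in the highest class were LINC01234 and LINC00460.

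**Figure D2:**
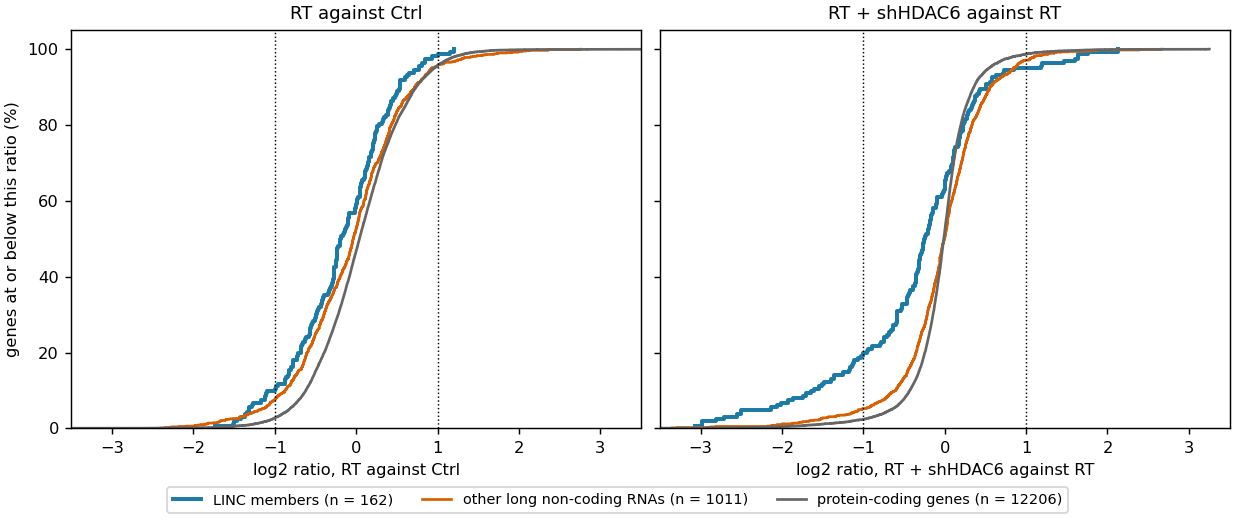
Share of genes at or below each log2 ratio (vertical axis, percent) for 162 LINC members (blue), 1011 other long non-coding RNAs (orange) and 12206 protein-coding genes (grey), in both main comparisons, with dotted lines at 2-fold. In RT + shHDAC6 against RT the member line has reached 19.8% at a 2-fold fall, where the other lines are at 5.24% and 2.38%.

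**Figure D3:**
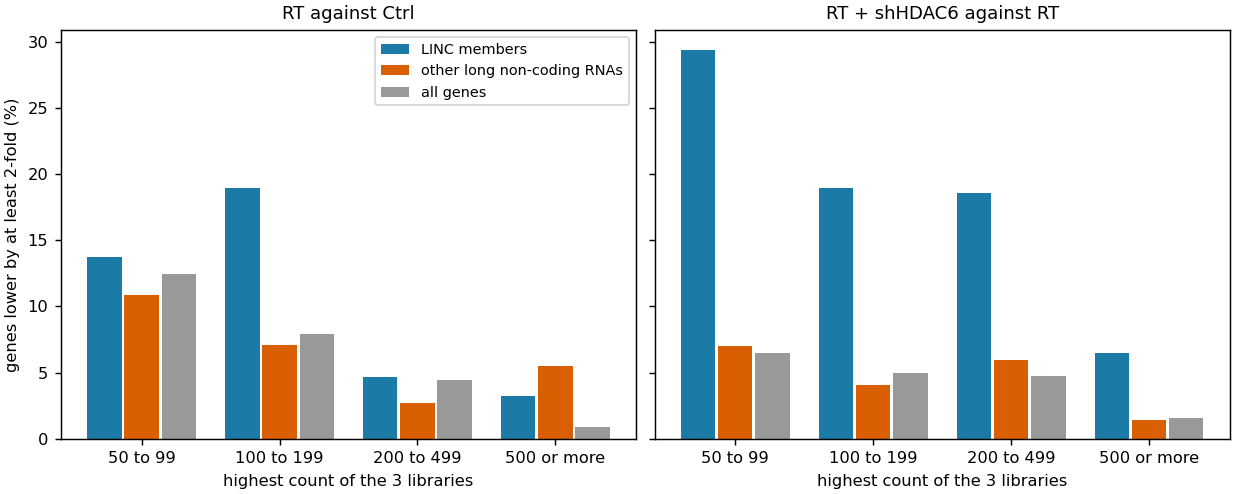
Percent of genes lower by at least 2-fold (bars from 0) in 4 classes of the highest count of the 3 libraries, for LINC members, other long non-coding RNAs and all genes. The member bar is above the all-gene bar in each class of both comparisons. For RT against Ctrl the 2 bars are close at 50 to 99 counts (13.7% and 12.5%) and at 200 to 499 (4.65% and 4.44%).

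Among members with at least 100 counts in RT or RT + shHDAC6, the largest falls were in 2 RNAs with similar scaled levels in Ctrl and RT. LINC01583 (ENSG00000259518, chr15:82088569-82097694, plus strand, 6 exons), whose promoter is the first window above, gave 397 counts for Ctrl, 258 for RT and 34 for RT + shHDAC6. Its log2 ratio was -2.99 (-3.55 to -2.47) for RT + shHDAC6 against RT and -0.19 (-0.42 to 0.04) for RT against Ctrl. LINC02474 (ENSG00000228437, chr1:221966341-221984964, plus strand, 3 exons) had 346, 265 and 35 counts, with log2 ratios of -2.98 (-3.54 to -2.47) and 0.05 (-0.19 to 0.29). In both RNAs the RT + shHDAC6 library stood apart from the other two, which lay together on the scaled level. Their nearest protein-coding genes did not pass the 2-fold rule. EFL1, a GTPase of ribosome maturation 32512 bases from LINC01583, had a log2 ratio of -0.02, and DUSP10, a phosphatase of stress-activated kinases 224252 bases from LINC02474, had one of 0.08.

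LINC02088 (ENSG00000227685, chr17:20612912-20633234, minus strand, 4 exons) had 225, 316 and 75 counts. It was higher in RT than in Ctrl by a log2 ratio of 0.93 (0.67 to 1.18), short of 2-fold, and its ratio for RT + shHDAC6 against RT was -2.14 (-2.52 to -1.77). Part of its exon sequence was shared with other genes on both strands, so its counts are uncertain, and its nearest protein-coding gene, CDRT15L2, was listed at 0 in all libraries. LINC02889 (ENSG00000236039, chr7:17405479-17558909, minus strand, 11 exons, sharing no exon) had 219, 186 and 48 counts, with a ratio of -2.02 (-2.51 to -1.55). LINC02889 and LINC02088 were both at their lowest in RT + shHDAC6.

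LINC02506 (chr4:31997376-32228543, plus strand, 6 exons) had 354, 166 and 52 counts and a log2 ratio of -1.74 (-2.22 to -1.28). LINC02985 (chr12:122063306-122068616) had 193, 192 and 66 counts and a ratio of -1.60 (-2.03 to -1.19), while BCL7A, a chromatin remodelling subunit that lies 1262 bases away, had a ratio of -0.05. LINC02009 (chr3:46416524-46423591) had 241, 190 and 68 counts and a ratio of -1.54 (-1.97 to -1.14). In each of the 3, RT + shHDAC6 was the lowest library, and LINC02506 had a ratio of -0.66 for RT against Ctrl, against 0.43 for LINC02985 and 0.09 for LINC02009.

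LINC02693 (chr17:21428263-21574517) had 219, 192 and 78 counts and a ratio of -1.36 (-1.76 to -0.97), and its neighbour KCNJ12, a potassium channel, had 3, 9 and 5 counts. LINC01234 (chr12:113583886-113773726, minus strand, 4 exons), one of the RNAs described in carcinomas, had 1130, 692 and 335 counts and a ratio of -1.11 (-1.30 to -0.92). It was the member with the most counts among those called lower, and RBM19, a ribosome biogenesis factor 43012 bases away, had a ratio of -0.04. Among members with fewer counts, chosen after their values were seen, LINC02840 had 77, 32 and 4 counts and a ratio of -3.06 (-5.02 to -1.57). LINC01085 had 86, 87 and 13 counts and a ratio of -2.80 (-3.77 to -1.96), and LINC02505 had 121, 76 and 14 counts and a ratio of -2.50 (-3.44 to -1.67).

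Rises were fewer and lay at low counts. LINC02454 (chr12:65589111-65614169, plus strand) gave 99 counts for Ctrl, 34 for RT and 108 for RT + shHDAC6. Its log2 ratios were -1.11 (-1.71 to -0.53) for RT against Ctrl and 1.61 (1.04 to 2.21) for RT + shHDAC6 against RT, so RT was the low library. Its neighbour MSRB3, a methionine sulphoxide reductase, had a ratio of -0.22 for RT + shHDAC6 against RT. LINC01836 (ENSG00000267530, chr19:782755-786092, plus strand, 2 exons), the last of the promoters printed above, had 45, 60 and 143 counts and a ratio of 1.19 (0.75 to 1.65) for RT + shHDAC6 against RT. Its neighbour PTBP1, a splicing regulator 10983 bases away, had a ratio of -0.04. Outside the naming rule, LINC02742 had 26, 21 and 96 counts and a ratio of 2.13 (1.44 to 2.89), and LINC00702 had 54, 29 and 94 counts and a ratio of 1.63 (1.02 to 2.29). These 2 RNAs were highest in RT + shHDAC6, and of the 8 higher members 0 reached 200 counts.

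RT + shHDAC6 against Ctrl, which holds irradiation and knockdown together and shares a library with each comparison above, had 7 members higher and 48 lower. Of all genes, 3.72% were higher and 5.72% were lower, against 4.32% and 29.6% of the members. For the 26 members that passed through Ctrl alone, some of this difference was built into the choice. Of the 101 members at the minimum in all 3 libraries, 14 were lower and 3 were higher. The lower share there was 13.9%, against 3.10% of all genes chosen in the same way. When the mean had to reach 50, it was 23.5% against 4.55%. The median log2 ratio was -0.36 over the members and 0.01 over all genes. LINC01876 (-3.83, -5.07 to -2.81) and LINC02609 (-3.38, -4.63 to -2.35) were lowest among those with at least 100 counts in Ctrl, followed by LINC01583 (-3.17), LINC02474 (-2.93) and LINC01235 (-2.76). Among members with at least 100 counts in RT + shHDAC6, LINC01836 had the largest rise, at 2.04 (1.55 to 2.56), with LINC01134 at 1.40, LINC01311 at 1.32 and LINC01547 at 1.08 (0.70 to 1.46). LINC01547 had 95, 99 and 155 counts, and SLX9, a ribosome biogenesis gene that starts next to it on the opposite strand, had 664, 699 and 1060 counts and a ratio of 1.05.

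The members together took 0.187% of all Ctrl counts, 0.142% of RT and 0.144% of RT + shHDAC6. Their 95% Clopper-Pearson intervals were 0.185% to 0.188%, 0.141% to 0.143% and 0.143% to 0.145%. One RNA, LINC03061 (chr13:109269634-109278512, plus strand, 2 exons), held a large part of this, with 15532, 9960 and 12538 counts. Without it the shares were 0.150%, 0.114% and 0.108%, so that RT + shHDAC6 was then below RT. On the scaled level LINC03061 stayed within 2-fold, with log2 ratios of -0.21 and 0.27, while its neighbour MYO16, 61629 bases away, had 94, 82 and 23 counts.

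Per kilobase of exon, LINC03061 was the highest member by the mean of the 3 libraries, at 67.3, 58.4 and 70.4 scaled CPM per kilobase. LINC01145 stood at 68.8, 67.8 and 53.1, above LINC03061 in Ctrl and in RT. LINC02582 (chr18:73324941-73349879, plus strand, 3 exons) stood at 55.5, 33.8 and 22.3, and LINC02167 (chr16:35743268-35756515, plus strand, 4 exons) at 30.8, 15.8 and 11.0. LINC02582 had 6279, 2825 and 1943 counts and log2 ratios of -0.72 in RT against Ctrl, -0.60 in RT + shHDAC6 against RT and -1.32 (-1.39 to -1.25) in RT + shHDAC6 against Ctrl. LINC02167 had 2780, 1057 and 768 counts and ratios of -0.96, -0.52 and -1.48. Both were highest in Ctrl and lowest in RT + shHDAC6, and neither reached 2-fold in a single step. LINC02088 was also among the first 10. The others among the first 10 (LINC01145, LINC00680, LINC00941, LINC00674, LINC01347 and LINC00888) had over 50% of their exon sequence inside another gene on the same strand, so their level per length is uncertain. None of these 6 passed the 2-fold rule in any comparison, and their log2 ratios ran from -0.49 (LINC00674, RT against Ctrl) to 0.77 (LINC00680, RT against Ctrl).

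Of 36 LINC RNAs listed because they have been described elsewhere, 31 were in the table, 20 were members and 11 stayed under the minimum, with a highest count of 34 and 3 listed at 0 in all libraries. In RT against Ctrl, 0 of the 20 were higher and 1 was lower (LINC00460), beside 3.48% of all genes. In RT + shHDAC6 against RT, 0 were higher and 2 were lower (LINC00460 and LINC01234), beside 2.89% of all genes, and the medians were -0.24 and -0.13. LINC00958, first described in bladder cancer, had 1820, 1450 and 1273 counts, with log2 ratios of 0.11 (0.01 to 0.21) and -0.25 (-0.36 to -0.14). LINC00857, also described in bladder carcinoma, had 392, 291 and 326 counts, with ratios of 0.01 and 0.10. Both held their levels within 2-fold.

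LINC00511, described as raised in many carcinomas, was just short of the rule, with 195, 73 and 108 counts and log2 ratios of -0.98 (-1.39 to -0.59) and 0.50. LINC00467, first described as a target repressed by MYCN, had 249, 111 and 155 counts and ratios of -0.73 and 0.42. LINC00839 had 685, 864 and 656 counts, with ratios of 0.77 (0.62 to 0.92) and -0.46 (-0.61 to -0.31). LINC00511 and LINC00467 were lowest in RT, and LINC00839 was highest there. LINC00632, the host transcript of the circular RNA CDR1as, had 610, 370 and 249 counts and ratios of -0.29 and -0.63, lowest in RT + shHDAC6. LINC00963, described in prostate cancer, had 2294, 1404 and 1923 counts and ratios of -0.27 and 0.39.

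The other described members stayed between -0.47 (LINC00641) and 0.47 (LINC00339) in RT against Ctrl and between -0.38 (LINC01089) and 0.34 (LINC00641) in RT + shHDAC6 against RT. Those were LINC00205, LINC00294, LINC00339, LINC00630, LINC00641, LINC00662, LINC00665, LINC00667, LINC00941, LINC01089 and LINC01116. LINC00665, for example, had 1437, 1395 and 1313 counts.

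Position in the genome, which the rule did not use, was set beside the share called. Of the 44 members more than 100 kb from a protein-coding gene, 27.3% were lower in RT + shHDAC6 against RT and 47.7% against Ctrl. The shares were 21.2% and 26.9% in the 52 members at 10 to 100 kb, 11.9% and 21.4% in the 42 at up to 10 kb, and 16.7% in both comparisons in the 24 that overlap a gene body. In RT against Ctrl the 4 shares in the same order were 11.4%, 11.5%, 9.52% and 8.33%. Of all genes, 2.89% were lower in RT + shHDAC6 against RT, 5.72% in RT + shHDAC6 against Ctrl and 3.48% in RT against Ctrl. The classes were not matched for counts or for members that passed the minimum through Ctrl alone. The difference between classes was not tested.

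Pairs of a member and its nearest protein-coding gene were compared for 143 members whose neighbour had a count. Across members, the log2 ratios for RT + shHDAC6 against RT had a Pearson r of 0.18 and a Spearman coefficient of 0.17, and among the 60 within 10 kb these were 0.53 and 0.34. In RT against Ctrl the values were 0.22 and 0.23 over the 143 members, and 0.18 and 0.19 within 10 kb. The points share libraries and some members share exon sequence with another gene, so these are descriptions across genes. Among the 82 members that share no exon with another gene, at any distance, the Pearson r for RT + shHDAC6 against RT was 0.09. In RT against Ctrl it was 0.29, above the value over the 143 members. The Spearman coefficients were 0.06 and 0.31. The part of shared exons in these values was not tested.

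A few pairs moved together. LINC02009 and CCRL2, an atypical chemokine receptor 3527 bases away on the opposite strand (52, 47 and 21 counts), had log2 ratios of -1.54 and -1.22 in RT + shHDAC6 against RT. LINC02977 and SUSD1, 1640 bases away on the same strand (329, 486 and 199 counts), had -1.17 and -1.35, and both were highest in RT. LINC02506 and PCDH7, a protocadherin 850571 bases away (1583, 1956 and 1000 counts), had -1.74 and -1.03. Of the 21 members lower in RT + shHDAC6 against RT whose neighbour reached 50 counts, 4 had a neighbour lower by at least 2-fold and 0 had one higher. Of all genes, 2.89% were lower and 1.39% were higher. Of the 15 such members lower in RT against Ctrl, 0 had a neighbour past the rule, with a median neighbour ratio of -0.53. With 3.48% of all genes lower and 4.17% higher there, 15 members are too few to read the 0 as a difference.

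**Figure D4:**
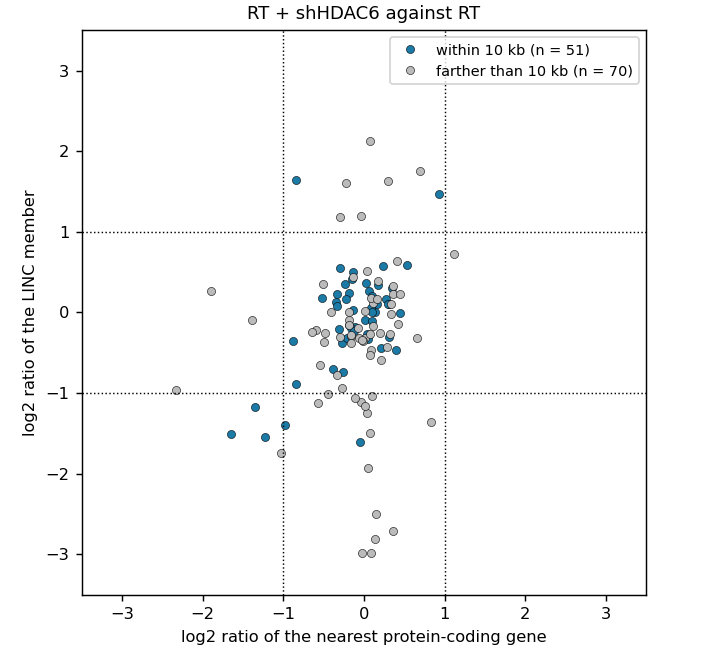
Log2 ratio of each LINC member (vertical axis) against that of its nearest protein-coding gene (horizontal axis), RT + shHDAC6 against RT, for the members whose neighbour reached 50 counts, within 10 kb (blue) or farther (grey), with dotted lines at 2-fold. Most members with large falls have a neighbour ratio near 0, and the 4 pairs with both genes lower by at least 2-fold lie at the lower left.

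Only 6 pairs of members lay within 100 kb of each other. LINC02864 (2122, 1333 and 925 counts) and LINC02582, 60461 bases apart on opposite strands of chromosome 18, had log2 ratios of -0.59 and -0.60 in RT + shHDAC6 against RT and -0.24 and -0.72 in RT against Ctrl. LINC01134 and LINC02780, 58908 bases apart on the same strand of chromosome 1, had 0.20 and -1.03 in RT + shHDAC6 against RT. The first pair was lower together and the second was not.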

How the data were processed

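RNA from T24 cells was sequenced from poly(A) libraries, 1 library for each of Ctrl, RT and RT + shHDAC6. The labels and the study's methods name different stranded kits and different STAR versions (2.6.1a in the submitters' processing notes). The authors trimmed reads with cutadapt, aligned them to GRCh38, assigned them to the genes of GENCODE release 28 (featureCounts) and deposited raw read counts without normalisation. The strand setting and the treatment of multi-mapping reads were not given in the sources used here, which could move counts between overlapping genes and near-identical copies.

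Symbols, types and positions were taken from GENCODE release 44 by Ensembl identifier, which matched 57754 genes, and 45 rows for the Y copies of pseudoautosomal genes were left out. The gene version was the same in release 44 for 43 of the 162 members. No per-sample column was left unused. Counts were scaled with TMM factors from all 3 libraries (edgeR 4.0.16, R 4.3.3), and zeros were set to 0.5. A call was a difference of at least 2-fold. NOISeq, which the study used, was not run, because its probability without replicates comes from simulated noise, and with 1 library per condition no residual degree of freedom was left for the count models of edgeR or DESeq2 1.42.0, of which only the scaling was used. Intervals are 95% Clopper-Pearson (scipy 1.17.1) on the share of the counts of both libraries. They cover counting error only, since without molecular identifiers PCR copies cannot be recognised. A count of 0 allows up to 3 counts, or 0.0662, 0.0894 and 0.0857 scaled CPM in the 3 libraries. The median half-width of the members' intervals was 0.36 (log2) in RT against Ctrl and 0.42 in RT + shHDAC6 against RT. The calling code was run on simulated libraries that held counting noise only. The planted changes were larger than 2-fold and lay in genes with more counts than many members. That run therefore cannot show how reliable the calls are between cultures or at low counts.

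Named genes were the 10 largest rises and falls among called members whose higher library reached 100 counts for both main comparisons (5 for RT + shHDAC6 against Ctrl), the 10 highest levels per exon length, the described LINC RNAs, the 3 genes on either side of the threshold and neighbours of the first group. The higher library here means the one with more counts of the pair compared. The members, lists and tests were chosen with earlier results of these data known. Alternatives covered scaling, count minimum, zeros, exon overlap and the size of the call. The values of 1 pair of a member and its neighbour are not reported here.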

Additional observations from a re-analysis of the deposited data

How the results depend on the processing

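With 1 library per condition, the spread between cultures is unknown, and counting intervals are the only error available. No paired analysis was possible because each condition had a single library. Of 114 values recomputed, 73 stayed within the tolerance (1.5 times for a count, the median counting half-width for a median, the sampling limits of r for a correlation), 41 moved beyond it and 0 changed sign. All medians of the members stayed below 0 in every alternative. They also stayed within the tolerance, but this was wider than the main medians were far from 0, so it could flag few shifts. With no minimum, the member median was -0.44 in RT against Ctrl (all genes, -0.14). It was -0.06 in RT + shHDAC6 against RT (all genes, -0.02) and -0.55 in RT + shHDAC6 against Ctrl (all genes, -0.11). The value of -0.06 is the one that scaling gives to any gene with equal counts in RT and RT + shHDAC6. Its sign therefore comes from the scaling factors.

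In the following, counts of members are given as higher and lower where both moved. RT against Ctrl (3 and 17) gave 0 and 28 with library totals, 9 and 36 with a minimum of 20 counts, 165 and 186 with no minimum, 13 and 39 at 1.5-fold and 30 and 66 with an interval past 0 of any size. The lower count was 10 with a minimum of 100, 10 with a mean of at least 50 and 11 without members that overlap an exon. RT + shHDAC6 against RT (8 and 32) gave 17 and 49 with a minimum of 20, 3 and 17 with a minimum of 100, 4 and 20 with a mean of at least 50, 104 and 279 with no minimum and 30 and 61 with an interval past 0. The higher count was 5 without overlapping members. RT + shHDAC6 against Ctrl (7 and 48) gave 14 and 74 with a minimum of 20, 4 and 29 with a minimum of 100, 169 and 248 with no minimum and 33 and 84 with an interval past 0. The higher count was 14 at 1.5-fold and the lower count 30 without overlapping members. The number of members tested changed with the minimum, to 238 at 20 counts, 111 at 100, 136 by the mean and 89 without overlap, and between 835 and 895 with no minimum.

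As a ratio, though not always in percentage points, the lower share of the members came nearer to that of all genes under some of these. In RT against Ctrl it was 20.9% against 15.6% of all genes with no minimum and 40.7% against 33.8% with an interval past 0, where 18.5% of the members and 39.3% of all genes were higher. At 1.5-fold it was 24.1% against 13.0%, and with a minimum of 20 counts 15.1% against 6.16%. In RT + shHDAC6 against RT it was 33.4% against 16.3% with no minimum, 37.7% against 29.7% with an interval past 0 and 20.6% against 4.05% with a minimum of 20. In RT + shHDAC6 against Ctrl it was 27.7% against 16.1% with no minimum and 51.9% against 34.5% with an interval past 0.

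Library totals moved the split of calls over all genes in RT against Ctrl from 4.17% higher and 3.48% lower to 1.99% and 6.93%. With every LINC-named gene with a count, the shares of counts were 0.198%, 0.150% and 0.152%, and without LINC03061 they were 0.150%, 0.114% and 0.108%. The Pearson r with neighbours within 10 kb in RT + shHDAC6 against RT was 0.53 in place of 0.18. The cause was not tested.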

Other observations

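Long non-coding RNAs linked to p53 or DNA damage that carry other names were listed beside the LINC members. Of 18 listed genes, 14 were in the table and 11 reached 50 counts. In RT against Ctrl, 0 were higher and 4 were lower by at least 2-fold (all genes, 4.17% and 3.48%), and in RT + shHDAC6 against RT 1 was higher and 0 were lower (all genes, 1.39% and 2.89%). NEAT1, the scaffold of paraspeckles, had 26067, 9568 and 22956 counts, with log2 ratios of -1.01 (95% counting interval -1.04 to -0.98) and 1.20 (1.17 to 1.24), so it was low in RT alone. PURPL, a p53-induced RNA once named as a LINC, had 2231, 754 and 1187 counts and ratios of -1.13 and 0.59. LINC-PINT had 401, 145 and 232 counts and TP53TG1 had 153, 54 and 108, and both were lowest in RT. MALAT1, the most abundant of the list, had 90333, 83895 and 78737 counts and ratios of 0.33 and -0.15. In RT against Ctrl, SNHG1 (0.82), PVT1 (0.77) and GAS5 (0.67) were also higher, short of 2-fold. NORAD (-0.36), CDKN2B-AS1 (-0.50) and MEG3 (-0.63) were lower there, also short of 2-fold.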
